A study of Mus musculus with 4 samples.

Results

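The mitochondrial ribosomal proteins were described in primary mouse keratinocytes with and without Glut1, the glucose transporter encoded by Slc2a1. The genes were chosen by symbol alone: every gene called Mrpl or Mrps with a number, measured by the brightest row that carried its symbol and no other. This gave 74 of the 30145 genes with such a row, 46 for the large subunit (Mrpl) and 28 for the small subunit (Mrps), and each had a single row. Of these, 73 were above the background floor on all 4 arrays. The floor of an array was the 95th percentile of its 23 background rows, between 4.36 and 4.87 on the log2 scale.

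The study compared 2 arrays of wild-type keratinocytes with 2 arrays of keratinocyte-specific Glut1-deficient cells, all from C57BL/6J mice that were 1 week old. The cells of 4 mice per genotype were grown in a serum-free keratinocyte medium with EGF, insulin, hydrocortisone, pituitary extract and 0.05 mM CaCl2. They were moved after 3 days to fresh plates at 2000000 cells and collected the next day. Each array held the RNA of 2 plates of a genotype, combined at random, so a replicate number stands for no animal and the animals' own spread is partly averaged out. Which promoter drove the deletion, and which part of the gene was removed, is not stated in the sources used here.

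The mitochondrial ribosome translates the few messages of mitochondrial DNA, which encode core subunits of the respiratory chain and of ATP synthase. Its RNAs are transcribed in the organelle, while all of its proteins are encoded in the nucleus, made in the cytosol and imported. The small subunit reads the message and the large subunit joins the amino acids. Some of the proteins descend from bacterial ribosomal proteins and others are found only in mitochondria.

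Slc2a1 gave log2 signals of 13.26 and 13.40 in wild-type and 12.09 and 12.01 in Glut1-deficient cells, and fell by 1.28 (SE 0.10, adjusted p = 0.00754). The keratinocyte markers were all far above the floor, 6 of 6, with mean log2 signals of 14.99, 15.09, 14.73 and 14.59 in the order wild type 1, wild type 2, Glut1-deficient 1, Glut1-deficient 2. The melanocyte markers were above the floor on all 4 arrays for 4 of 5 genes, with mean signals of 6.39, 6.17, 7.89 and 7.04 in the same order. For fibroblasts (Col1a1), leukocytes (Cd68) and endothelial cells (Kdr), 1 marker each of 5, 5 and 3 measured was above the floor on all arrays. Their mean signals lay between 4.22 and 5.01 on the wild-type arrays and between 4.68 and 6.17 on the Glut1-deficient arrays, while Col3a1, Lum, Ptprc, Cd207, Cd3e, Adgre1 and Cdh5 were above the floor on no array. At an adjusted p under 0.05 in limma, 1 keratinocyte marker was called lower in Glut1-deficient cells. For fibroblasts, melanocytes, leukocytes and endothelial cells, 1 marker each was called higher. Over all rows with 1 symbol, 4.11% were called higher and 3.11% lower. The part of the cell types other than keratinocytes in the results below was not tested. In such bulk samples fewer cells of a type and less RNA per cell cannot be told apart. All p-values reflect how far these few samples spread, part of which may be technical, and so few arrays limit the precision.

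Few mitochondrial ribosomal protein genes passed the test between the genotypes. In Glut1-deficient cells Mrpl24, Mrps34 and Mrps30 rose, Mrpl49 fell, and the other 70 did not pass the threshold of an adjusted p of 0.05. The 4 called genes are 5.41% of the members, beside 7.22% of all 30604 rows with 1 symbol and 14.4% of the rows above the floor on all 4 arrays. By direction, 4.05% of the members were called higher, beside 4.11% of all rows, and 1.35% were called lower, beside 3.11%. Among the 14005 genes above the floor on all 4 arrays, 1159 were called higher and 862 lower. On the log2 scale, the median difference (Glut1-deficient less wild type) was 0.10 over all members, with quartiles of -0.05 and 0.21. The median over all genes was -0.01, and over the genes above the floor it was 0.00 with quartiles of -0.23 and 0.25.

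Precision was similar across the members, with a median standard error of 0.10. The 95% interval of the difference lay inside a 2-fold change in both directions for 73 of the 74 members, all but Mrpl24, and inside a 1.5-fold change for 62. A p above the threshold does not show that a gene stayed the same, but for these genes the intervals bound the difference. The genotypes' values did not overlap in 46 members, of which 37 (50.7% of the 73 above the floor) were higher in Glut1-deficient cells and 9 (12.3%) lower. Over all rows above the floor, 33.6% were higher without overlap and 31.6% lower. Differences above 0 numbered 50 of 74 (67.6%), beside 50.4% of the genes above the floor. That count was 48 after quantile normalization or median centring and between 45 and 52 when 1 array was left out.

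**Figure D1:**
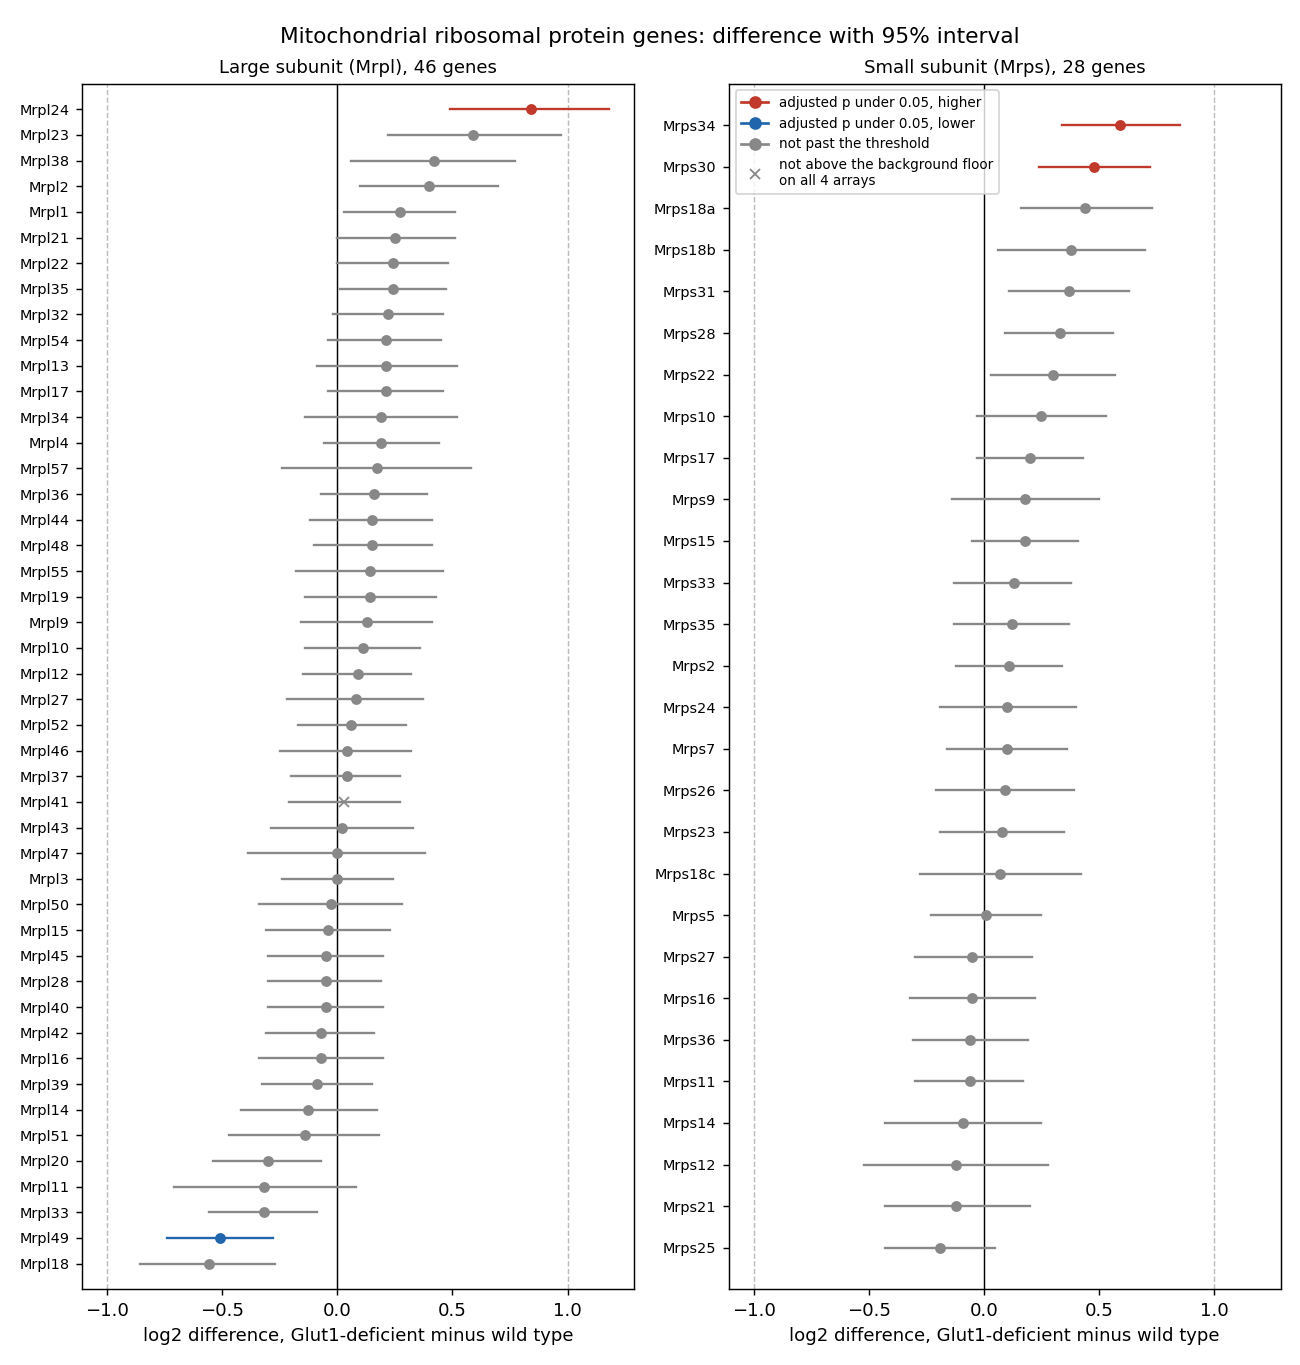
The difference in log2 signal (Glut1-deficient minus wild type) of each of the 46 large-subunit and 28 small-subunit genes, with its 95% interval from limma over 2 arrays per genotype; dashed lines mark a 2-fold change. Mrpl24, Mrps34 and Mrps30 are the called genes on the right of 0 and Mrpl49 the one on the left, and most other intervals cross 0.

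Mrpl24 encodes a large-subunit protein related to bacterial L24, which lies beside the exit of the tunnel through which the new chain leaves. Its log2 signals were 9.30 and 9.15 in wild-type cells and 10.20 and 9.92 in Glut1-deficient cells. Both Glut1-deficient values stood above both wild-type values, by more than the replicates of either genotype differed from each other. The difference was 0.84 (SE 0.13, 95% interval 0.49 to 1.18), a level of 178% of wild type, with an adjusted p of 0.0302 in limma. It was the largest difference among the members.

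Mrps34, a small-subunit protein found only in mitochondria and needed for a stable small subunit, gave 7.06 and 7.18 in wild-type and 7.75 and 7.68 in Glut1-deficient cells. It rose by 0.59 (SE 0.10, interval 0.34 to 0.85), to 151% of wild type, with an adjusted p of 0.0344. Mrps30 carries a small-subunit name, but structures of the mammalian ribosome place the protein in the large subunit. Its signals were 8.60 and 8.59 against 9.11 and 9.04, so replicates lay close together and the genotypes apart. It rose by 0.48 (SE 0.09, interval 0.24 to 0.72), to 140% of wild type, with an adjusted p of 0.0478, the member just inside the threshold.

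Mrpl49, a mitochondria-specific protein of the large subunit, was the called member that fell. Its signals were 8.62 and 8.66 in wild-type cells and 8.12 and 8.13 in Glut1-deficient cells, with no overlap. The difference was -0.51 (SE 0.09, interval -0.74 to -0.28), a level of 70.1% of wild type, with an adjusted p of 0.0382. All 4 calls were lost without wild type replicate 1, and again without replicate 2 of that genotype or without Glut1-deficient replicate 1, while Mrpl24 alone kept its call without Glut1-deficient replicate 2. Over these fits the adjusted p of Mrps34, Mrps30 and Mrpl49 lay between 0.0806 and 0.214. None of the 4 was called when every row of the table was tested, and with the replicate number as a block only Mrpl24 was (adjusted p of 0.0648 for Mrps34, 0.102 for Mrps30 and 0.0863 for Mrpl49).

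In the RefSeq gene table of GRCm38.p6 the spans of Mrpl24 and Rrnad1 overlap, as do those of Mrpl49 and Syvn1. Rrnad1 gave 5.73, 5.70, 5.71 and 5.71 in the order used above (adjusted p = 0.99), and Syvn1 gave 5.86, 6.00, 6.22 and 5.94, a difference of 0.15 (adjusted p = 0.636). Neither partner was called. The spans of Mrpl2 and Klc4 also overlap, as do those of Mrps18a and Rsph9, members that were not called. Klc4 differed by -0.02 (adjusted p = 0.954). Rsph9 had signals of 4.15, 4.09, 4.33 and 4.19, below the floor on all 4 arrays.

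**Figure D2:**
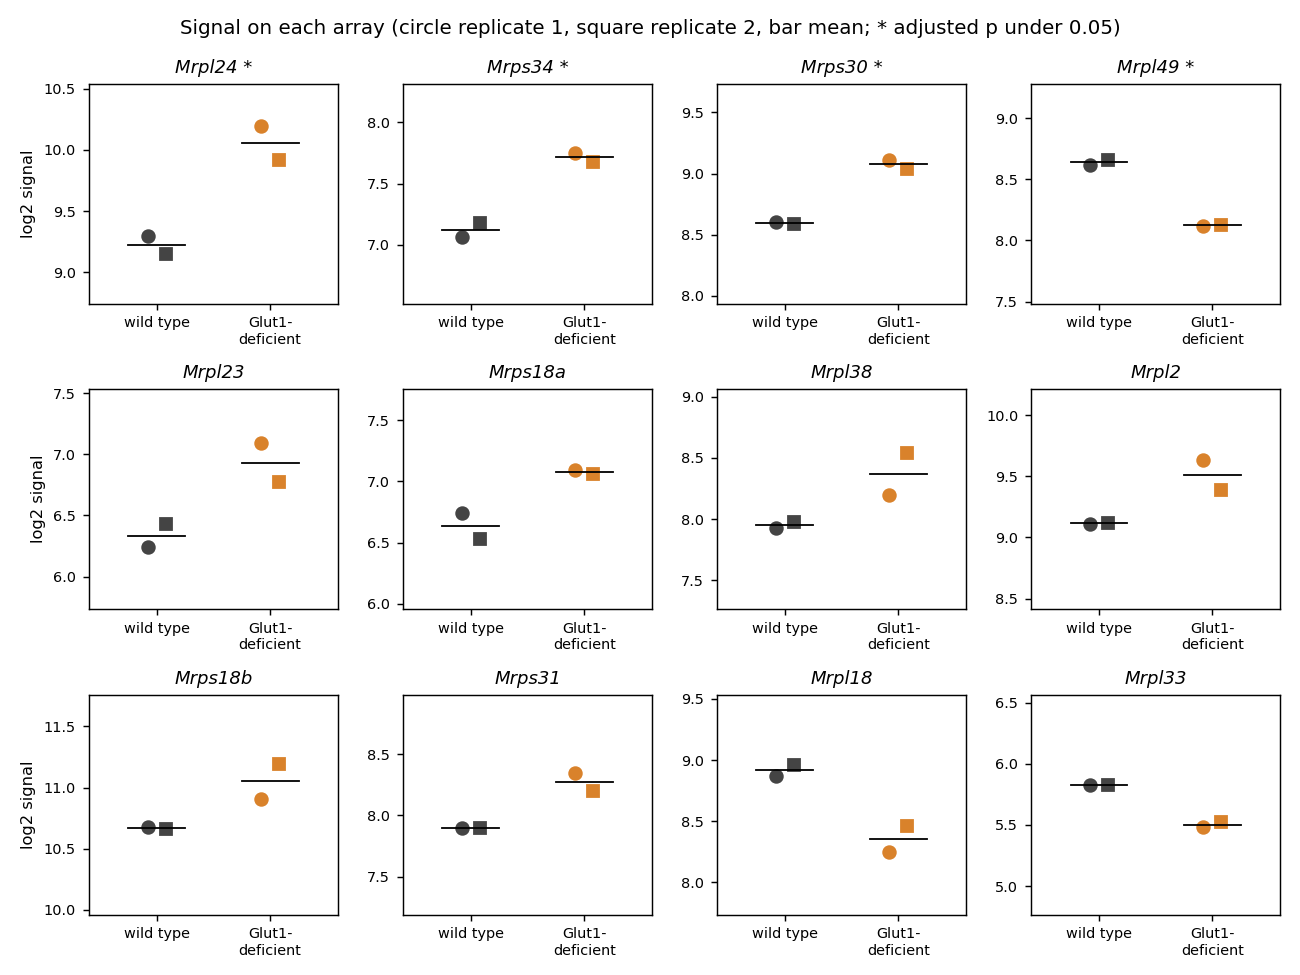
Log2 signal on each array for the 4 called members and 8 of the largest differences that were not called and did not overlap; circles are replicate 1, squares replicate 2 and bars the mean of a genotype. Each axis has its own range, and an asterisk marks an adjusted p under 0.05.

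Many mitochondrial ribosomal protein genes start back to back with another gene. RefSeq promoter windows of GRCm38.p6, from 250 bases before to 50 after a start, were found for 65 of the 74 members. Of these, 22 (33.8%) shared their window with a gene that starts on the opposite strand and runs the other way, beside 10.9% of all genes and 18.6% of the genes above the floor. Where a pair had several starts, the closest opposite starts were taken. The bases between these starts are shown for the 3 such pairs in which a gene was called. The same is shown for the pair in which both genes are members. All bases are written 5′ to 3′ on the plus strand, so the gene named first runs to the left and the second to the right. Capitals mark matches to the SP core GGGCGG on the plus strand.
Mrpl49 and Fau, chr19:6057756-6057946: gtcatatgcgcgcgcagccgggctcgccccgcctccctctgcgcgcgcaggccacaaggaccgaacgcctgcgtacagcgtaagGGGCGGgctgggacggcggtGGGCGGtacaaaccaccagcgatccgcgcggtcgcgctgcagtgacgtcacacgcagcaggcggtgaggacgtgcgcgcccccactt
Eme1 and Mrpl27, chr11:94653744-94653790: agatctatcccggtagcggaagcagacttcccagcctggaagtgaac
Ska3 and Mrpl57, chr14:57826164-57826238: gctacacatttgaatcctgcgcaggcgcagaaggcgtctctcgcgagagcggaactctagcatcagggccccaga
Mrpl46 and Mrps11, chr7:78783090-78783130: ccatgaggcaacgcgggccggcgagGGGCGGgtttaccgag

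With 191 bases between their starts, Mrpl49 and Fau moved in opposite directions. Fau encodes a fusion of a ubiquitin-like protein and a cytosolic small-subunit ribosomal protein. It gave 14.52 and 14.69 in wild-type and 15.91 and 15.45 in Glut1-deficient cells, and rose by 1.08 (SE 0.18, adjusted p = 0.0313), while Mrpl49 fell by 0.51. Fau was not called without either wild-type array or without Glut1-deficient replicate 1 (adjusted p between 0.0836 and 0.122).

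In the other pairs with a called neighbour, the member itself was not called. Eme1, a subunit of a structure-specific DNA endonuclease, gave 6.87 and 6.80 against 6.03 and 6.24 and fell by 0.70 (adjusted p = 0.0312). Mrpl27, with 47 bases between the starts, differed by 0.08 (SE 0.12, adjusted p = 0.803). Ska3, a component of the complex that ties kinetochores to microtubules, gave 9.57 and 9.48 against 8.34 and 8.52 and fell by 1.09 (adjusted p = 0.0122), and Mrpl57 across 75 bases differed by 0.17 (SE 0.16, adjusted p = 0.663). In the RefSeq gene table the spans of Eme1 and Mrpl27 also overlap, as do those of Ska3 and Mrpl57. The closest starts taken here are therefore not the only starts in these pairs. Mrpl46 and Mrps11, both members, differed by 0.04 and -0.06. Of the 19 measured neighbours that are no member, these 3 (15.8%) were called, Fau higher and Eme1 and Ska3 lower, a share near the 14.4% of all rows above the floor. When single arrays were left out, the adjusted p of Eme1 lay between 0.0513 and 0.148, and Ska3 lost its call without wild type replicate 1 (0.0606) or without Glut1-deficient replicate 1 (0.0588). None of the 3 was called when every row of the table was tested (0.132 for Fau, 0.135 for Eme1 and 0.0808 for Ska3).

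Short motifs were searched on both strands of the same windows, 1 window per gene. ETS factors, among them the GA-binding protein, and NRF1 are known regulators of nuclear genes for mitochondrial proteins. The ETS core CCGGAAG was in 23 of 65 member windows (35.4%), beside 9.12% of all 27025 windows and 19.6% of the windows of genes above the floor. The NRF1 core GCATGCGC was in 8 (12.3%), beside 2.80% and 5.71%, and the YY1 core AAGATGG in 13 (20.0%), beside 6.48% and 7.73%. The E-box CACGTG, the core bound by Myc and its partners, was in 5 (7.69%), beside 7.24% and 10.6%. The SP core GGGCGG was in 33 (50.8%), beside 35.9% and 66.4%, and the C/EBP-ATF core TGATGCAA was in none, beside 0.929% and 0.622%. A match is a description of letters and not of binding. Of the called members, Mrps34 had no window and was not searched. Among the called members with a window, Mrpl49 held the YY1 and SP cores, and none held any of the other 4 motifs.

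Among the 46 large-subunit genes, 30 differences were above 0 and 16 below, with a median of 0.08 and a range of -0.56 to 0.84. Mrpl24 was the call upwards and Mrpl49 the call downwards. Mrpl18, related to the bacterial protein that binds 5S rRNA, had the lowest difference and was the member just outside the threshold. Its signals were 8.87 and 8.96 in wild-type and 8.25 and 8.46 in Glut1-deficient cells, without overlap. The difference was -0.56 (SE 0.11, interval -0.86 to -0.27, adjusted p = 0.0535), and it was called when only brighter rows were tested (adjusted p of 0.035 for rows at or above the median signal). Its span overlaps that of Tcp1, which differed by -0.14 (adjusted p = 0.479).

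Other large-subunit genes with separated groups are given with their values only, since none passed the threshold. Mrpl23, a neighbour of the Mrpl24 protein at the tunnel exit, gave 6.24 and 6.43 against 7.09 and 6.77, a difference of 0.59 (SE 0.15, adjusted p = 0.0838). Mrpl38, a protein of the central protuberance, gave 7.93 and 7.98 against 8.20 and 8.54, and Mrpl2, a conserved protein near the catalytic centre, 9.11 and 9.12 against 9.63 and 9.39. Their differences were 0.42 (adjusted p = 0.164) and 0.40 (adjusted p = 0.122). On the other side of 0, Mrpl33 gave 5.83 and 5.83 against 5.48 and 5.52, a difference of -0.32 (adjusted p = 0.113), Mrpl20 gave 8.64 and 8.68 against 8.35 and 8.37, -0.30 (adjusted p = 0.135), and Mrpl11, at the base of the stalk, 8.31 and 8.40 against 8.24 and 7.84, -0.32 (adjusted p = 0.341). The row of Mrpl33 names 3 Entrez genes of that symbol, so its signal may be shared by near copies. Mrpl39 had close values of 11.47, 11.57, 11.42 and 11.44, a difference of -0.09 (adjusted p = 0.702).

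Mrpl12, the stalk protein that also binds the mitochondrial RNA polymerase, gave 8.18 and 8.21 against 8.31 and 8.24. Its difference was 0.09, with an interval of -0.15 to 0.32 (adjusted p = 0.715). Mrpl41 was above the floor on 1 of 4 arrays, with values of 4.44, 4.44, 4.43 and 4.52, and no fold is given for it.

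Among the 28 small-subunit genes, 20 differences were above 0 and 8 below, with a median of 0.11 and a range of -0.19 to 0.59. Mrps34 and Mrps30 were called. Mrps18a, whose product structures also place in the large subunit, gave 6.74 and 6.53 against 7.09 and 7.06, a difference of 0.44 (SE 0.11, adjusted p = 0.0871). Its paralogue Mrps18b gave 10.68 and 10.66 against 10.91 and 11.19, 0.38 (adjusted p = 0.163), and Mrps18c differed by 0.07 with overlapping groups (adjusted p = 0.865). Mrps31 gave 7.90 and 7.90 against 8.35 and 8.20, 0.37 (adjusted p = 0.106). The lowest difference in the small subunit was that of Mrps25, with 6.34 and 6.27 against 6.11 and 6.13, -0.19 (adjusted p = 0.337). Mrps36, now regarded as a subunit of the 2-oxoglutarate dehydrogenase complex and not of the ribosome, differed by -0.06 (adjusted p = 0.826).

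By ancestry, the 45 genes with a bacterial homologue had a median of 0.11 with 1 call (2.22%). The 28 genes found only in the mitochondrial ribosome had a median of 0.07 with 3 calls (10.7%). Called shares were 7.25% over all genes and 14.4% over the genes above the floor, so nothing is read from these counts. Leaving out 1 array gave medians of 0.09 to 0.16 for the first and 0.02 (without wild type replicate 1) to 0.11 (without wild type replicate 2 or without Glut1-deficient replicate 2) for the second. No test of that difference was run. Mrpl58, a peptide-release protein built into the large subunit, is listed under its older symbol Ict1 and falls outside the symbol rule. It gave 8.04 and 8.18 against 8.51 and 8.25, a difference of 0.27 (SE 0.13, adjusted p = 0.319). Mrpl30, Mrpl53 and Mrps6 occur only on rows that also carry another gene's symbol and were not used.

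The Glut1-deficient arrays differed in how far the members stood above wild type. Relative to each gene's own mean over 4 arrays, the median over the 73 members above the floor was -0.068 and -0.026 for wild type and 0.077 and 0.009 for Glut1-deficient cells, replicate 1 first. Glut1-deficient replicate 1 exceeded replicate 2 in 50 of 73 members. The median distance between the replicates was 0.07 in wild-type and 0.09 in Glut1-deficient cells, and the median distance between the genotypes was 0.14. For the genes above the floor these distances were 0.11, 0.15 and 0.24. Without Glut1-deficient replicate 1 the median difference of all members was 0.05, and without Glut1-deficient replicate 2 it was 0.14.

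**Figure D3:**
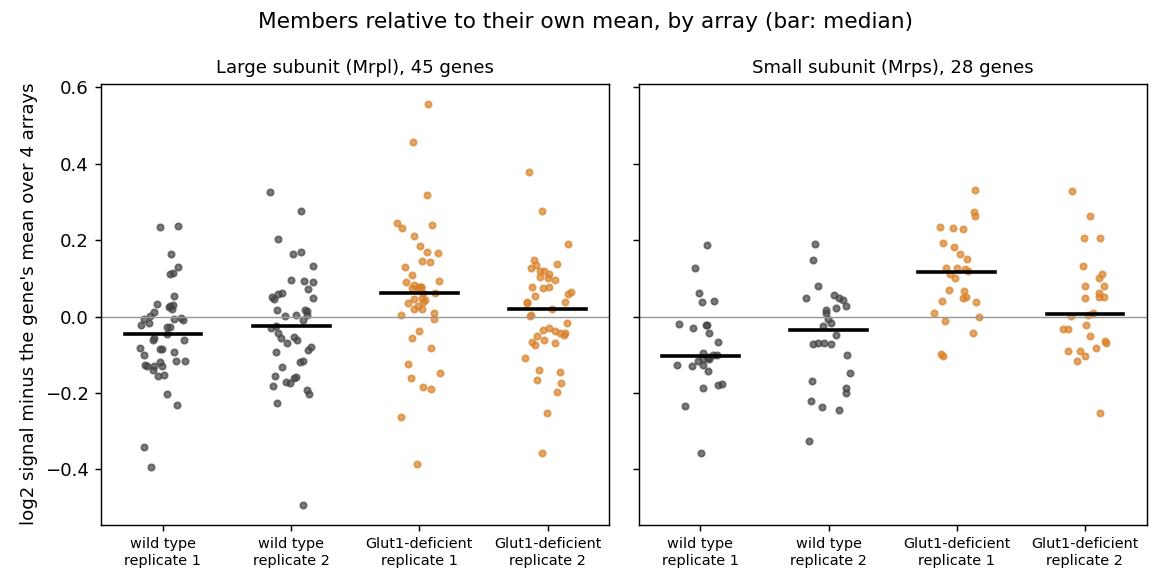
Each point is 1 gene on 1 array, as its log2 signal minus that gene's mean over the 4 arrays, for 45 large-subunit and 28 small-subunit genes above the floor; bars are medians. The highest medians are those of Glut1-deficient replicate 1, at 0.062 and 0.117, and the medians of Glut1-deficient replicate 2 are 0.015 and 0.008.

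The genes that build or serve the mitochondrial ribosome were described in further lists. Called shares were 7.25% over all genes and 14.4% over the genes above the floor. Nothing is therefore read from the number of calls in the short lists of mitochondrial genes below. Of the ribosome components without a Mrp symbol, 4 of 5 were measured and none was called. Chchd1, of the small subunit, differed by 0.35 (adjusted p = 0.143) and Ptcd3, of the same subunit, by -0.38 (adjusted p = 0.147). None of 24 assembly and rRNA modification factors was called, with a median of 0.06. The lowest p-values there were those of Mettl15, an rRNA methyltransferase, at 0.43 (adjusted p = 0.0713) and Mtg1, an assembly GTPase, at 0.36 (adjusted p = 0.0864). Of 16 mitochondrial aminoacyl-tRNA synthetases none was called, with a median of 0.08, and Fars2 and Nars2, which charge the phenylalanine and asparagine tRNAs, differed by 0.48 (adjusted p = 0.0737) and 0.38 (adjusted p = 0.0797). When 1 array was left out the median lay between 0.03 and 0.08 for the assembly factors, lowest without wild type replicate 2, and between 0.05 and 0.16 for the synthetases, highest without wild type replicate 1 or without Glut1-deficient replicate 2.

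Calls appeared in 2 of the 15 translation factors, both higher. This share of 13.3% stands beside 7.22% of all rows and 14.4% of the rows above the floor, so nothing is read from the count. The list's median was 0.08, but -0.03 when Glut1-deficient replicate 1 was left out and 0.25 when replicate 2 of that genotype was. Mrrf, the factor that recycles the ribosome after termination, gave 8.26 and 8.29 in wild-type and 9.29 and 8.88 in Glut1-deficient cells and rose by 0.81 (SE 0.16, adjusted p = 0.048). Lrpprc, which stabilises mitochondrial messages, gave 9.66 and 9.76 against 10.29 and 10.19 and rose by 0.53 (SE 0.10, adjusted p = 0.0443). Lrpprc lost its call when any single array was left out, and Mrrf lost it without either wild-type array or without Glut1-deficient replicate 1, when their adjusted p lay between 0.086 and 0.222. Neither was called with trend and robust in eBayes (0.0553 for Mrrf, 0.055 for Lrpprc) or when every row of the table was tested (0.175 and 0.172). Mrrf also lost its call after quantile normalization (0.0542), and Lrpprc with the replicate number as a block (0.0883).

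Of 10 measured genes for mitochondrial DNA and its transcription, Top1mt, the mitochondrial topoisomerase, was called. It gave 7.63 and 7.73 against 8.42 and 8.41 and rose by 0.73 (SE 0.10, adjusted p = 0.0194), and the list's median was 0.04. Its adjusted p lay between 0.0607 and 0.11 when 1 array was left out and was 0.104 when every row of the table was tested. None of 9 regulators of mitochondrial biogenesis was called. Gabpa, the DNA-binding subunit of the GA-binding protein, differed by -0.42 (adjusted p = 0.13). Ppargc1b, a coactivator, was above the floor on 3 of 4 arrays, with signals of 4.60 and 4.51 in wild-type and 4.98 and 4.79 in Glut1-deficient cells, and no fold is given for it. The 7 measured transcripts of mitochondrial DNA had a median of -0.22 with 6 of 7 below 0 and none called, and without wild type replicate 1 or without Glut1-deficient replicate 1 the median was -0.03 or -0.04. Of these, ND3 of respiratory complex I differed by -0.31 (adjusted p = 0.268) and COX2 of complex IV by -0.22 (adjusted p = 0.438).

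The cytosolic ribosomal proteins form the ribosomes on which the imported mitochondrial proteins are made. This list was formed only from genes with a row of 1 symbol, so cytosolic ribosomal proteins without such a row are missing from it. The results below hold for the genes listed and not for the whole family. Of 34 measured genes, 8 (23.5%) were called higher, beside 4.11% of all rows, and none lower. All 34 were above the floor on all 4 arrays. Among the 14005 genes above it, 1159 were called higher, and 14.4% were called in either direction. The median difference was 0.48 with a range of 0.15 to 1.08. All 34 were above 0, also after quantile normalization, where the median was 0.41 and 4 were called, and after median centring, where it was 0.47 and 8 were called. Fau, described above, rose by 1.08, Rps20 by 0.83 (adjusted p = 0.0226), Rpl31 by 0.75 (adjusted p = 0.0208) and Rpl8 by 0.71 (adjusted p = 0.037). Rps28 rose by 0.62 (adjusted p = 0.0411) and Rps19 by 0.47 (adjusted p = 0.0456). The signals of these genes differed widely. Mean wild-type log2 signals were 6.47 for Rps28, 6.81 for Rps19, 7.48 for Rpl31 and 8.44 for Rps20. They were 14.84 for Rpl8 and 14.6 for Fau. How well each row captures its transcript was not tested. Without either wild-type array or without Glut1-deficient replicate 1 no cytosolic gene was called, and without Glut1-deficient replicate 2 there were 5. No cytosolic gene was called when every row of the table was tested, and 4 were called with the replicate number as a block, where Rps28 (adjusted p = 0.0617) and Rps19 (0.105) were not. Many of these genes have processed copies in the genome that can share signal. The median of the cytosolic list was 0.48, beside 0.08 and 0.11 for the large and small mitochondrial subunits, and the difference between the lists was not tested.

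**Figure D4:**
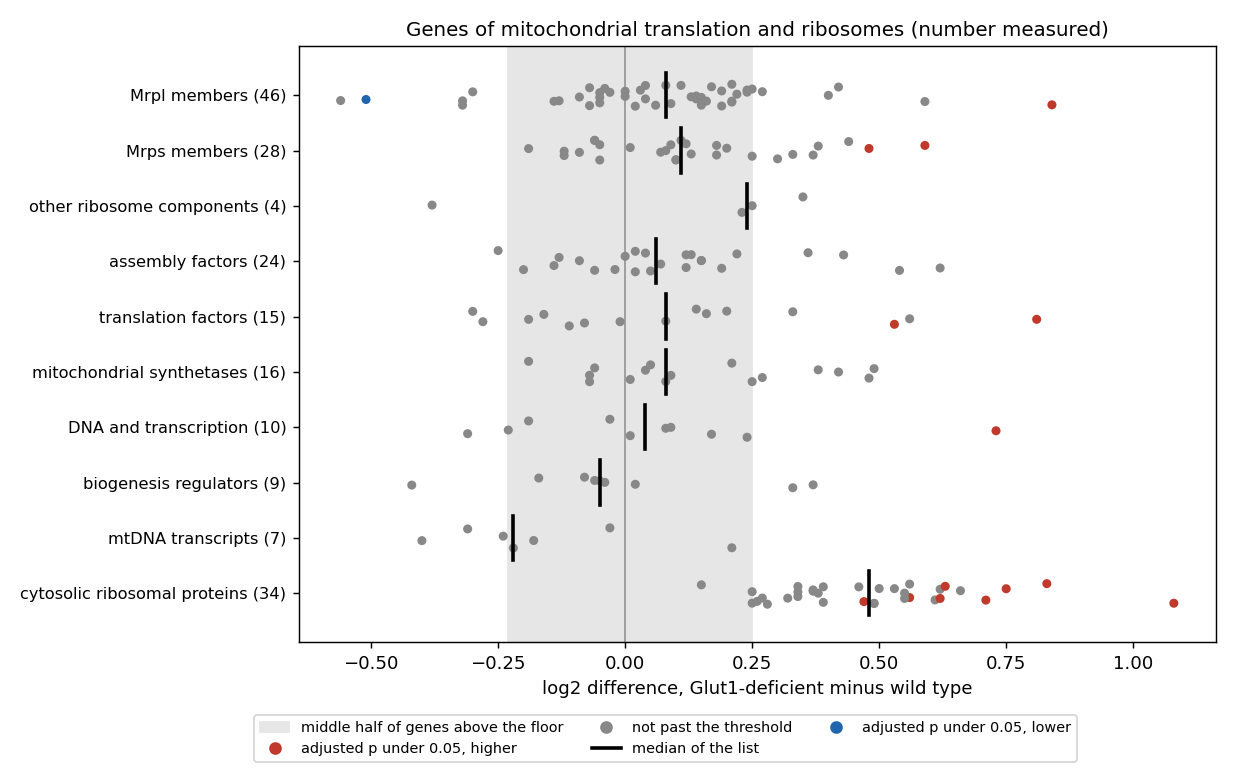
Each point is the log2 difference (Glut1-deficient minus wild type) of 1 gene, by list; black bars are list medians and the grey band spans the quartiles (-0.23 to 0.25) of the genes above the floor. The medians of the Mrpl and Mrps genes, 0.08 and 0.11, lie inside the band, and that of the cytosolic ribosomal proteins, 0.48, lies to its right.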

How the data were processed

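RNA of the 4 samples was measured on single-colour Affymetrix MTA-1_0 arrays. The authors deposited 1 log2 signal for each transcript cluster and array. Per the labels these are SST-RMA signals at the gene level, and the submitters' processing notes name RMA and the Affymetrix Expression Console. No version or annotation release is given in the sources used here. SST-RMA also transforms the signal, so a fold here may not equal one from plain RMA.

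Of 72688 rows, 6732 were controls and 30604 had 1 gene symbol in the platform annotation, while 2146 had several. These 30604 rows were compared with limma 3.58.1 in R 4.3.3 (lmFit and eBayes with default settings, two-sided, without a block), with Benjamini-Hochberg adjustment over all of them and a threshold of 0.05. The fit was tested on data simulated from limma's own model with changes of 2-fold and more. These are larger than the difference of any member, so that test does not cover the sizes seen here. All adjusted p-values in the text come from this fit unless another is named.

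The members and lists were chosen with earlier results of these data known. Genes were named by a rule: every called member, up to 6 separated differences in each direction, members whose role differs from their name, and of each further list up to 6 calls or else the 2 lowest p-values. Genes outside it are named as neighbours in the genome, or are Mrps18c and Mrpl41, named after their values were seen. Alternatives were other normalizations, other sets of rows, eBayes with trend and robust, the mean of a gene's rows, updated symbols, a replicate block and leaving out each array. Promoters are from RefSeq (GRCm38.p6).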

Additional observations from a re-analysis of the deposited data

How the results depend on the processing

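The medians of both subunits kept their sign when values were rescaled or 1 array was left out. The differences of the 18 members named by the rule kept theirs too. For all of these but Mrps36 the genotypes' values did not overlap. Leaving out 1 array could therefore not reverse their sign, and nothing is read from that result. The other alternatives leave a difference as it is. Members outside the rule were not followed in this way. Over the fits that left out 1 array, 210 to 729 rows were called higher and 104 to 485 lower, 0 to 1 members higher and 0 members lower. The median was 0.05 to 0.10 for the large subunit and 0.06 to 0.18 for the small subunit. Both were lowest without Glut1-deficient replicate 1. The small-subunit median was highest without Glut1-deficient replicate 2. For the large subunit it was 0.10 both in that fit and without wild type replicate 2. Testing every row of the table called 54 rows higher and 20 lower, with 0 members in either direction. Testing only rows at or above the median signal, or above the floor in a genotype, called 2 members lower, Mrpl49 and Mrpl18. With trend and robust, Mrps30 was not called (adjusted p = 0.0608). Quantile normalization and median centring called the same 4 members. Gene means could not change a member's value, since each had 1 row, and updated symbols added Mrpl58 alone.

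Same-numbered arrays deviated from their genotype means with a correlation of -0.31 over 14192 rows, and the numbers do not pair animals. The replicate block called 1 member higher and 0 lower. The crossed pairing, chosen after seeing the data, called 2 members higher, of which 1 was among the 4 called members, and 0 lower.

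With 2 arrays per genotype, the median 95% interval of a member extended 0.26 on the log2 scale to either side. The smallest called difference was 0.48 in size.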

Other observations

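Rows annotated to pseudogenes of the members were measured on the same arrays and belong to no comparison above. Mrpl23-ps1, a processed copy of Mrpl23, gave 10.68 and 10.79 in wild-type and 12.38 and 11.95 in Glut1-deficient cells, a rise of 1.43 (SE 0.16, adjusted p = 0.0155 in limma). It was not called without wild type replicate 1 (adjusted p = 0.0635), without Glut1-deficient replicate 1 (0.0518) or when every row of the table was tested (0.0893). The row of Mrpl23 differed by 0.59 (adjusted p = 0.0838), and near-identical copies can share signal, so neither value can be assigned to 1 of the genes with certainty. Mrpl48-ps differed by 0.52 (adjusted p = 0.0893), Mrps36-ps2 by 0.32 (adjusted p = 0.277) and Mrps36-ps1 by 0.02 (adjusted p = 0.959).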
